A study of Homo sapiens with 8 samples.

Results

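The protein-coding genes described here encode the initiation factors, elongation factors and cytoplasmic poly(A)-binding proteins that carry mRNA translation in the cytosol. A total of 45 genes were chosen by name, and a gene was taken where its symbol in the expression table equalled a name on that list. All 45 were found among the 61906 genes listed, and all 45 were among the 14478 genes tested. U251, a human glioblastoma cell line with the genotype given as wild type, was exposed to LLY-283, a small-molecule inhibitor of the arginine methyltransferase PRMT5. Cultures received LLY-283 at 100 nM, or DMSO as vehicle, for 24 h, and 4 biological replicates of each were sequenced after poly(A) capture. The labels name no other agent or allele, and both groups come from this 1 line at 1 dose and 1 time. Expression is given as TPM, a transcript share that is divided by transcript length and sums to the same total in every library, so the number of reads behind a value is unknown.

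Translation starts when eIF2, loaded with GTP and the initiator tRNA, joins the small ribosomal subunit together with eIF1, eIF1A, eIF5 and eIF3. The eIF4 factors recognise the mRNA cap (eIF4E), scaffold the complex (eIF4G) and unwind the leader (the helicase eIF4A with its cofactors eIF4B and eIF4H), while 4E-BP proteins hold eIF4E when mTORC1 is inactive. Elongation is driven by eEF1A, which delivers aminoacyl-tRNA, by the eEF1B subunits that recharge it, and by eEF2, which moves the ribosome along. Many mRNAs of the translation apparatus begin with a C followed by a run of pyrimidines, the terminal oligopyrimidine (TOP) motif, through which LARP1 and mTORC1 set how well they are translated. In glioblastoma the mTORC1 and eIF4E pathway is known for frequent activation downstream of growth factor receptors.

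The first transcribed bases of some of the members that carry such a run are shown. The run is the sequence feature by which translation factor mRNAs are best known. RefSeq start sites on GRCh38.p14 were found for 35 of the 45 members, and at 10 of these 35 (28.6%) the start base was a C followed by at least 4 pyrimidines, against 5.14% of 27305 genes with a listed start. Among the 10365 gene symbols tested and with a listed start the share was 7.57%. Each sequence below runs 5′ to 3′ from 10 bases before the start to 20 bases from it, and the capitals mark the run.
EIF3D: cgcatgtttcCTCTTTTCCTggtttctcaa
EIF4B: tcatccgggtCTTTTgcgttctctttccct
EIF3M: gcccagttccCTTTTCCggtcggcgtggtc
EIF2S3: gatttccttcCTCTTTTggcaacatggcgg
EEF1A1: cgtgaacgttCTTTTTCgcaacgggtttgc
EEF2: cgtcagcgttCTCTTCCgccgtcgtcgccg
They lie at chr22:36529147-36529176 on the minus strand, chr12:53006446-53006475 and chr11:32583821-32583850 on the plus strand, chrX:24054946-24054975 on the plus strand, and chr6:73521013-73521042 and chr19:3985444-3985473 on the minus strand. The remaining starts of this kind belong to EIF4A2, EIF3F, EEF1B2 and EIF3K, none of which was called by the test below. The printed sequences hold all 4 members with the run that were called higher, and so are not a neutral sample of the 10. Of the 10 members with the run, 4 were higher after LLY-283 by the test below and 0 were lower, while 8 of the other 25 matched members were higher and 5 lower. Members without a listed start are in neither count. Among them EIF3G, EIF3H, EIF3L, EEF1D and PABPC4 were called higher and PABPC1 lower. The 785 tested symbols with such a run matched 787 genes tested, of which 9.40% were called higher and 16.8% lower. At an unadjusted p under 0.05 the counts were 5 and 0 of the 10 members and 128 and 192 of the 787 genes. By a textbook list of TOP mRNAs in place of the annotated start, 3 of 10 members were higher and 1 lower, against 14 and 5 of the other 35. The differences between these shares were not tested. A listed start site is 1 position in an annotation and need not be the start used in U251 cells.

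Before the members are described, 1 library needs naming. LLY-283 replicate 4 had 7.19% of its TPM on the mitochondrial genome, whereas the other 7 libraries had 10.15% to 11.0%. It held the highest LLY-283 value for 31 of the 45 members (68.9%), against 30.9% of all genes tested, and the members summed to 23220 TPM in it, against 21450 to 21580 TPM in the other 3 LLY-283 libraries. Because all values within a library share 1 total, a lower mitochondrial share raises the others. With the mitochondrial genes left out and each library rescaled, replicate 4 was the highest LLY-283 library for 22 members, which then summed to 25020 rescaled TPM in it against 24020 to 24140 in the other 3 LLY-283 libraries. Under that rescaling 18 members were called higher and 6 lower, and their median log2 fold change was 0.058, against 7.86% higher, 18.1% lower and a median of -0.057 over the 14733 genes then tested. The glial and progenitor markers VIM, GFAP, NES, SOX2, FABP7 and CD44 were all above 84 TPM in every library. NES, SOX2, FABP7 and GFAP fell after LLY-283 (log2 fold changes of -0.17, -0.27, -0.21 and -0.25, adjusted p from 0.000349 to 0.00082) and CD44 rose (0.11, adjusted p = 0.0168). The call of CD44 held under 13 of the 19 alternatives (adjusted p up to 0.189), that of FABP7 under 18 (up to 0.0591), and those of NES, SOX2 and GFAP under all 19. VIM and S100B were not called (-0.063 and -0.43, adjusted p = 0.195 and 0.0781), but without replicate 4 VIM was called lower (-0.09, adjusted p = 0.00179). The part of this in the results was not tested. S100B was between 2.34 and 4.94 TPM, and markers of blood, epithelial, endothelial, liver and neuronal cells and of myelin (PTPRC, CD3E, EPCAM, PECAM1, ALB, RBFOX3 and MBP) were at most 0.61 TPM. Replicates within either group correlated at 0.963 to 0.971 across genes, on the log2 scale.

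After LLY-283 the mRNA of 17 translation factors rose, that of 6 fell and 22 were not called. A gene was called where limma, fitted to log2(TPM + 0.1), gave a p under 0.05 after Benjamini-Hochberg adjustment over all genes tested. The 17 higher calls are 37.8% of the members, where 8.61% of all genes tested were called higher, and the 6 lower calls are 13.3%, where 17.6% of all genes were called lower (26.2% in either direction). Members are abundant mRNAs, and among the 6324 genes at least as abundant as the lowest member, 14.8% were called higher and 17.3% lower. The median log2 fold change was 0.067 over the members, -0.047 over all genes tested and -0.002 over those 6324 genes. Changes were small, from -0.33 (EIF2B2) to 0.30 (EIF3D) on the log2 scale. None of the 45 members passed 1.5-fold, where 3.87% of all genes did so with an adjusted p under 0.05 (0.394% higher and 3.48% lower) and, of the 6324 abundant genes, 11 were so called higher and 35 lower. At an unadjusted p under 0.05, 21 members were higher and 6 lower, where 1915 and 3673 of all genes tested and 1361 and 1512 of the abundant genes were. Groups of 4 libraries did not overlap for 19 members in the higher and 5 in the lower direction, against 9.63% and 19.6% of all genes tested (29.2% in either direction). Among the 6324 abundant genes 1054 were without overlap in the higher and 1173 in the lower direction.

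**Figure D1:**
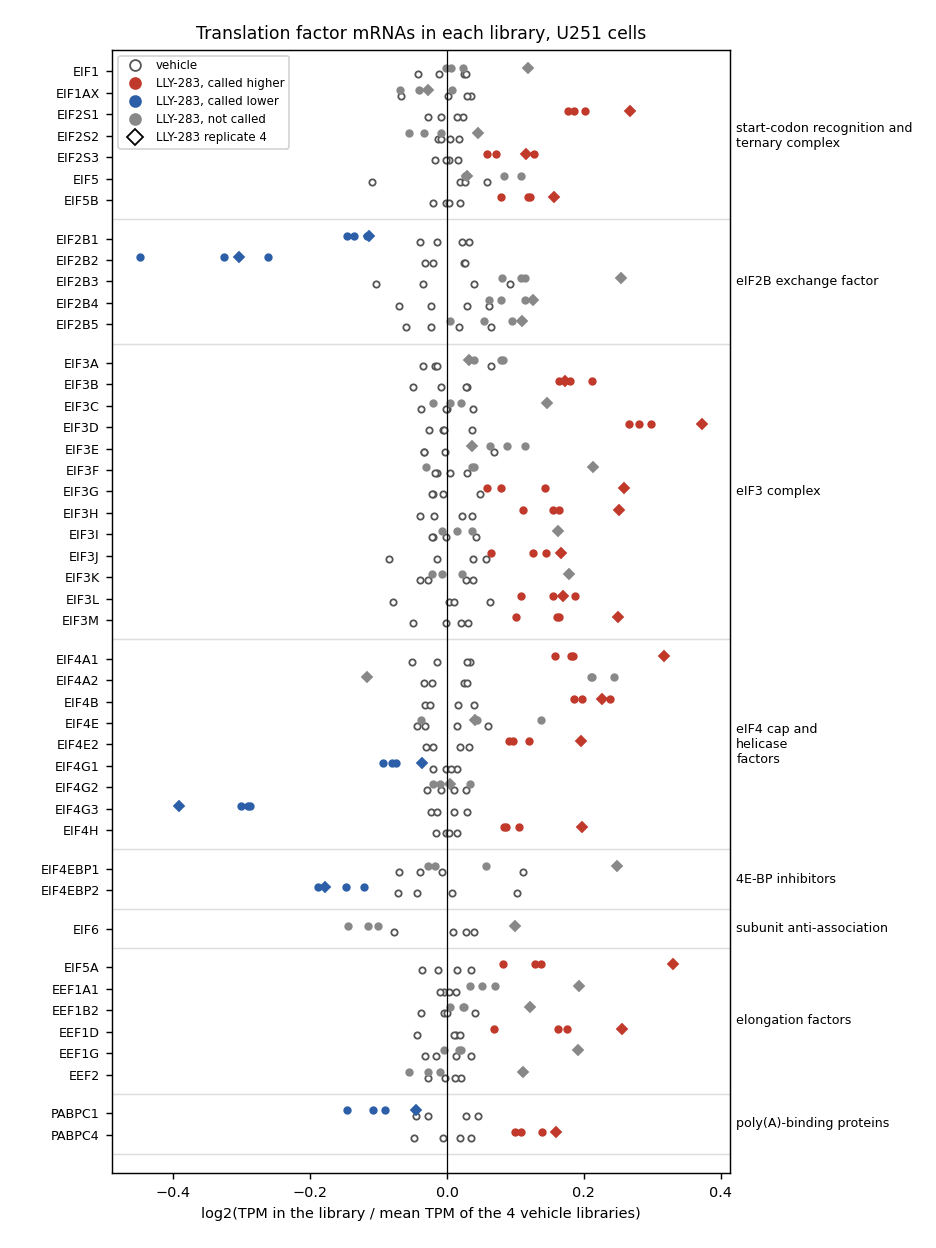
Level of each of the 45 mRNAs in each library as log2 of its TPM over the vehicle mean (x axis), by role; open circles are vehicle, filled circles LLY-283 and diamonds LLY-283 replicate 4, coloured by call. The 13 eIF3 subunits lie to the right or around 0, EIF2B2 and EIF4G3 lie farthest to the left, and replicate 4 lies to the right of the other LLY-283 libraries for 31 members.

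The members together took 2.07% ± 0.018 (SD, n = 4) of the TPM of a vehicle library and 2.19% ± 0.086 (SD, n = 4) of an LLY-283 library. EEF1A1, at a mean of 6437 TPM over the 8 libraries, made up 30.2% of this in vehicle and 30.3% in LLY-283. EEF2 (1436 TPM), EIF4A1 (1383 TPM), EEF1G (1243 TPM) and EIF5A (1066 TPM) followed, and EIF4EBP2 was the least abundant at 21.8 TPM. The SD of a member within a group was 2.30% of its mean at the median in vehicle (0.686% to 5.93%) and ranged from 1.07% to 11.1% in LLY-283.

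**Figure D2:**
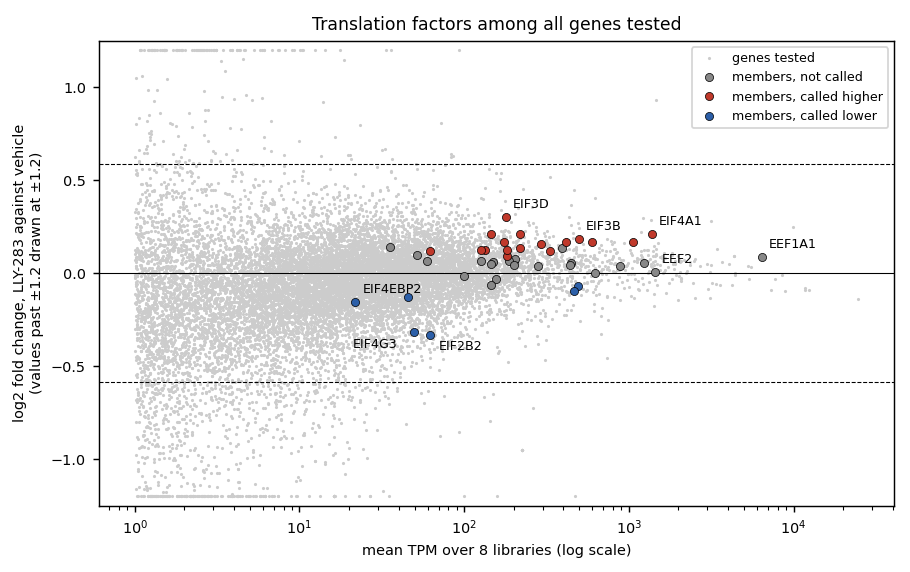
Log2 fold change of LLY-283 against vehicle (y axis) by mean TPM over the 8 libraries (x axis, log scale) for all 14478 genes tested (light grey) and the 45 members (large points, coloured by call). Dashed lines mark 1.5-fold; no member reaches them, and the members sit in the right part of the plot with most points above 0.

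Start-codon recognition was represented by eIF1, eIF1A, the 3 subunits of eIF2, eIF5 and eIF5B, and here 3 of the 7 mRNAs rose and none fell. EIF2S1 encodes eIF2 alpha, the subunit whose phosphorylation slows initiation under stress. EIF2S1 was at 138, 133, 137 and 135 TPM in the vehicle libraries (replicates 1 to 4) and at 153, 156, 154 and 163 TPM in the LLY-283 libraries. All LLY-283 values were above all vehicle values, and the mean was 15.5% higher (log2 fold change 0.21 ± 0.029 SE, adjusted p = 0.000996). EIF2S3 encodes eIF2 gamma, which binds GTP and the initiator tRNA. The vehicle libraries held 179, 175, 177 and 177 TPM of EIF2S3, and the LLY-283 libraries 193, 184, 186 and 192 TPM. This rise of 6.69% was small against the other calls but the groups did not overlap (log2 fold change 0.093 ± 0.026 SE, adjusted p = 0.0251). It missed the threshold without vehicle replicate 2, vehicle replicate 4 or LLY-283 replicate 1 (adjusted p = 0.0601, 0.0585 and 0.0626). EIF5B encodes the GTPase that joins the ribosomal subunits. In replicates 1 to 4, EIF5B measured 60.5, 59.6, 59.8 and 58.9 TPM with vehicle and 64.9, 64.8, 63.1 and 66.5 TPM with LLY-283. Again no LLY-283 library reached down to the vehicle range (log2 fold change 0.12 ± 0.028 SE, adjusted p = 0.0142). EIF1, which guards start-codon choice, was the most abundant of these mRNAs. With vehicle EIF1 stood at 847, 887, 865 and 889 TPM, and with LLY-283 at 875, 886, 871 and 946 TPM. The groups overlapped (log2 fold change 0.037 ± 0.033 SE, adjusted p = 0.442), and without replicate 4 the value was 0.01. EIF1 was called higher after correction for GC content and transcript length (0.124, adjusted p = 0.0279). EIF2S2, EIF1AX and EIF5 were, like EIF1, not called in the main fit, with log2 fold changes of -0.013 (-0.033 without replicate 4), -0.033 and 0.063. When 1 library was left out, EIF1AX ran from -0.055 to -0.02 and EIF5 from 0.027 to 0.083. Under median-of-ratios scaling EIF5 was called higher (0.123, adjusted p = 0.0383).

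The eIF2B complex exchanges GDP for GTP on eIF2 and is the step that phosphorylated eIF2 alpha blocks, and its 5 subunit mRNAs did not move together. EIF2B2, for the beta subunit, had the lowest log2 fold change of all members. EIF2B2 ran at 70.5, 67.8, 68.3 and 70.5 TPM across the vehicle libraries and at 55.3, 50.8, 57.8 and 56.1 TPM across the LLY-283 libraries. All 4 LLY-283 libraries were lower, by 20.6% on average, and the call held under all 19 alternatives (log2 fold change -0.33 ± 0.042 SE, adjusted p = 0.000613). EIF2B1, for the alpha subunit, which like beta belongs to the regulatory part, also fell. For EIF2B1 the vehicle values were 47.2, 48.4, 46.4 and 48.8 TPM and the LLY-283 values 43.4, 43.1, 44 and 44.1 TPM. The groups did not overlap (log2 fold change -0.13 ± 0.030 SE, adjusted p = 0.0132), but the call was lost under median-of-ratios scaling (-0.068, adjusted p = 0.179) and after correction for GC content and length (-0.047, adjusted p = 0.279). EIF2B3 and EIF2B5, for the catalytic gamma and epsilon subunits, and EIF2B4, for the regulatory delta subunit, had higher means without a call. Their log2 fold changes were 0.14 (EIF2B3, adjusted p = 0.0838), 0.066 (EIF2B5, adjusted p = 0.228) and 0.096 (EIF2B4, adjusted p = 0.0832). EIF2B4 was at 50.8, 52.0, 47.4 and 49.0 TPM in the vehicle libraries (replicates 1 to 4) and at 52.0, 53.9, 52.6 and 54.3 TPM in the LLY-283 libraries. The highest vehicle value of EIF2B4 was 51.96 TPM and its lowest LLY-283 value 51.97 TPM, where TPM has 2 decimals. Its groups therefore did not overlap only by the last digit given, and it missed the threshold. EIF2B3 and EIF2B4 were called higher under median-of-ratios scaling (0.201 and 0.155, adjusted p = 0.0417 and 0.0281), and EIF2B3, EIF2B4 and EIF2B5 after the GC and length correction (0.244, 0.205 and 0.154, adjusted p = 0.012, 0.00806 and 0.0162). EIF2B2 lies at chr14:75002921-75012366 on the plus strand (ENSG00000119718, GRCh38).

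All 13 subunits of eIF3, the complex that bridges the small subunit and eIF4G, had a higher mean after LLY-283, and 7 of them were called. Of all genes tested, 5766 of 14478 had a higher value, as did 3130 of the 6324 abundant genes. Without LLY-283 replicate 4, 12 of the 13 eIF3 subunits were higher and 6 were called, since EIF3K went to -0.002 and EIF3J to an adjusted p of 0.0577. The eIF3 calls numbered 11 after the GC and length correction and 9 under median-of-ratios scaling. They numbered 5 with no filter on low values, with eBayes without trend, and without vehicle replicate 2 or LLY-283 replicate 3. Of the 5 subunits outside the structural octamer, EIF3B, EIF3D, EIF3G and EIF3J were called, and of the 8 octamer subunits EIF3H, EIF3L and EIF3M were. EIF3D, whose product can itself contact the cap of some mRNAs, showed the largest rise of all members. The vehicle libraries held 159.7, 165, 158 and 160.0 TPM of EIF3D, and the LLY-283 libraries 193, 197, 195 and 208 TPM. The lowest LLY-283 library stood well above the highest vehicle library, the mean rose by 23.5%, and the call held under all 19 alternatives (log2 fold change 0.30 ± 0.030 SE, adjusted p = 0.000212). EIF3B encodes the scaffold subunit of the part that reaches the mRNA entry channel. In replicates 1 to 4, EIF3B measured 463, 476, 450.4 and 475 TPM with vehicle and 528, 539.9, 522 and 526 TPM with LLY-283. It was the most abundant eIF3 mRNA, rose by 13.5%, and LLY-283 replicate 4 lay among the other 3 (log2 fold change 0.18 ± 0.026 SE, adjusted p = 0.00119).

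The octamer subunits that rose also had groups without overlap. With vehicle EIF3H stood at 168, 159, 161 and 166 TPM, and with LLY-283 at 176, 182, 183 and 194 TPM. For EIF3H the groups did not overlap (log2 fold change 0.17 ± 0.035 SE, adjusted p = 0.00685). EIF3L ran at 263, 291, 279 and 280.0 TPM across the vehicle libraries and at 299.8, 309.5, 317 and 313 TPM across the LLY-283 libraries. EIF3L was likewise higher in every LLY-283 library (log2 fold change 0.16 ± 0.034 SE, adjusted p = 0.00922). For EIF3M the vehicle values were 391.9, 398, 379 and 401 TPM and the LLY-283 values 439, 438, 421 and 466 TPM. EIF3M, the most abundant of these 3, rose by 12.5% (log2 fold change 0.17 ± 0.035 SE, adjusted p = 0.00714). EIF3J encodes a loosely bound subunit that helps to recruit the complex to the ribosome. EIF3J was at 173, 165, 182 and 179 TPM in the vehicle libraries (replicates 1 to 4) and at 191, 183, 193 and 196 TPM in the LLY-283 libraries. The lowest LLY-283 value was within 1 TPM of the highest vehicle value (log2 fold change 0.13 ± 0.037 SE, adjusted p = 0.0337), and the call was lost without vehicle replicate 1 or 2 or LLY-283 replicate 1, 3 or 4 (adjusted p from 0.0577 to 0.0802). EIF3G, an RNA-binding subunit, passed narrowly (log2 fold change 0.14 ± 0.043 SE, adjusted p = 0.0472) and missed the threshold without 6 of the 8 libraries in turn, with adjusted p from 0.0551 without LLY-283 replicate 2 to 0.11 without vehicle replicate 3; the others were vehicle replicates 1, 2 and 4 and LLY-283 replicate 3. EIF3A, EIF3C, EIF3E, EIF3F, EIF3I and EIF3K had log2 fold changes of 0.038 to 0.076 and were not called. After the GC and length correction EIF3A, EIF3E, EIF3I and EIF3K were called higher (0.104, 0.161, 0.171 and 0.182, adjusted p = 0.0222, 0.00841, 0.0156 and 0.0264). EIF3A and EIF3E were also called higher under median-of-ratios scaling (0.118 and 0.136, adjusted p = 0.0108 and 0.0179). Without LLY-283 replicate 4, EIF3C was at 0.001 and EIF3F and EIF3I at 0.015. Of the uncalled eIF3 subunits EIF3E was the nearest (adjusted p = 0.107), and it passed without vehicle replicate 1 (adjusted p = 0.0422). EIF3C has a near-identical copy, EIF3CL, listed at 25.7 TPM in vehicle and 32.3 TPM in LLY-283, so how the reads of this pair were divided is uncertain.

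**Figure D3:**
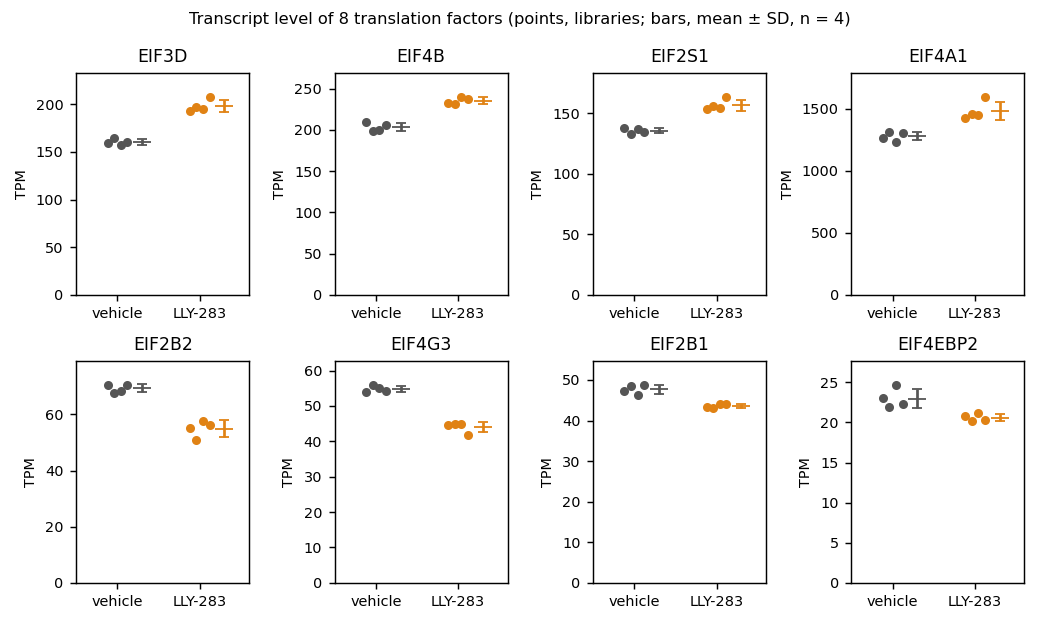
TPM (y axis, from 0) of EIF3D, EIF4B, EIF2S1 and EIF4A1, which rose, and of EIF2B2, EIF4G3, EIF2B1 and EIF4EBP2, which fell, in the 4 vehicle (dark) and 4 LLY-283 (orange) libraries; bars beside the points give the mean ± SD. In each panel the points of the groups do not overlap, and in the EIF4A1 panel LLY-283 replicate 4 lies above the other 3.

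Among the 9 eIF4 mRNAs, EIF4A1, EIF4B, EIF4E2 and EIF4H rose while the scaffold mRNAs EIF4G1 and EIF4G3 fell. EIF4A1 encodes the main eIF4A helicase. The vehicle libraries held 1269, 1312, 1237 and 1309 TPM of EIF4A1, and the LLY-283 libraries 1431, 1456, 1453 and 1597 TPM. Its mean rose by 15.8%, and replicate 4 was the highest LLY-283 library by far (log2 fold change 0.21 ± 0.039 SE, adjusted p = 0.00413); without that library the log2 fold change was 0.17 (adjusted p = 0.00149). EIF4B encodes the protein that stimulates the helicase. In replicates 1 to 4, EIF4B measured 209, 199, 199.9 and 206 TPM with vehicle and 233, 231, 240.1 and 238 TPM with LLY-283. Here the 4 LLY-283 libraries were close to each other and all above vehicle (log2 fold change 0.21 ± 0.027 SE, adjusted p = 0.000633). EIF4H encodes a related cofactor. With vehicle EIF4H stood at 317, 318, 314 and 321 TPM, and with LLY-283 at 342, 337, 337 and 364 TPM. The rise was 8.60% (log2 fold change 0.12 ± 0.030 SE, adjusted p = 0.0183). The gene EIF4E2 encodes 4EHP, a cap-binding protein that does not bind eIF4G and represses translation. EIF4E2 ran at 131, 130.2, 126 and 127 TPM across the vehicle libraries and at 137, 137, 139.7 and 147 TPM across the LLY-283 libraries. It was higher in every LLY-283 library (log2 fold change 0.13 ± 0.032 SE, adjusted p = 0.0171), while EIF4E itself, the cap-binding factor, was not called (log2 fold change 0.047 ± 0.041 SE, adjusted p = 0.433) and ran from 0.016 to 0.075 when 1 library was left out.

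EIF4G3, for an alternative scaffold, fell by nearly as much as EIF2B2. For EIF4G3 the vehicle values were 53.9, 55.9, 55.2 and 54.3 TPM and the LLY-283 values 44.5, 44.9, 44.8 and 41.8 TPM. All 4 LLY-283 libraries were lower, the mean fell by 19.8%, and the call held under all 19 alternatives (log2 fold change -0.32 ± 0.034 SE, adjusted p = 0.000302). The gene lies at chr1:20806292-21177285 on the minus strand (ENSG00000075151, GRCh38). EIF4G1, the principal scaffold, was 4.81% lower with groups that did not overlap (log2 fold change -0.071 ± 0.023 SE, adjusted p = 0.0471), but this call did not survive leaving out any of the libraries except LLY-283 replicate 4, with adjusted p from 0.0649 to 0.108 across the 7 other cases. EIF4G2, for a scaffold without an eIF4E site, was not called (log2 fold change 0.002 ± 0.024 SE, adjusted p = 0.963). For EIF4A2, the paralog of EIF4A1, the call changed when 1 library was left out. EIF4A2 was at 378, 363, 379 and 366 TPM in the vehicle libraries (replicates 1 to 4) and at 440.1, 430.4, 429.9 and 343 TPM in the LLY-283 libraries. Replicate 4 was below every vehicle library while the other 3 LLY-283 libraries were above all of them (log2 fold change 0.14 ± 0.072 SE, adjusted p = 0.19). Without replicate 4 the log2 fold change was 0.22 (adjusted p = 0.000445).

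Of the 2 4E-BP mRNAs, EIF4EBP2 fell after LLY-283. The vehicle libraries held 23.1, 21.9, 24.7 and 22.3 TPM of EIF4EBP2, and the LLY-283 libraries 20.8, 20.2, 21.1 and 20.3 TPM. The groups did not overlap (log2 fold change -0.16 ± 0.046 SE, adjusted p = 0.0324), yet the adjusted p rose to between 0.0506 and 0.0806 when vehicle replicate 1, 3 or 4 or LLY-283 replicate 1, 2 or 4 was left out. In replicates 1 to 4, EIF4EBP1 measured 117, 133, 119.5 and 122 TPM with vehicle and 121, 128, 121 and 146 TPM with LLY-283. EIF4EBP1, the more abundant inhibitor mRNA, overlapped between groups (log2 fold change 0.067 ± 0.064 SE, adjusted p = 0.479), and without LLY-283 replicate 4 the value was 0.005. EIF6, which keeps the large subunit from joining too early, was not called. With vehicle EIF6 stood at 151, 149, 140.2 and 152 TPM, and with LLY-283 at 138, 134, 137 and 159 TPM. Replicate 4 was the highest of all 8 libraries and the other 3 LLY-283 libraries were the lowest (log2 fold change -0.064 ± 0.054 SE, adjusted p = 0.413), and without replicate 4 the value was -0.12 (adjusted p = 0.025).

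All 6 elongation factor mRNAs had a higher mean in LLY-283, and 2 of them rose. A higher value was found for 5766 of all 14478 genes tested and for 3130 of the 6324 abundant genes. EIF5A encodes the hypusine-bearing factor that helps the ribosome through difficult peptide bonds. EIF5A ran at 993, 1013, 977 and 1027 TPM across the vehicle libraries and at 1061, 1103, 1096 and 1261 TPM across the LLY-283 libraries. Replicate 4 stood highest again (log2 fold change 0.17 ± 0.050 SE, adjusted p = 0.0328), and the value without it was 0.12 (adjusted p = 0.00752). Leaving out any vehicle library, or LLY-283 replicate 2 or 3, ended this call (adjusted p from 0.0512 to 0.0917). So did no filter on low values and eBayes without trend (adjusted p = 0.0854 and 0.0687). EEF1D encodes a subunit of the eEF1B exchange factor. For EEF1D the vehicle values were 569, 568, 547 and 571 TPM and the LLY-283 values 591, 637, 631 and 673 TPM. It rose by 12.3% without overlap (log2 fold change 0.17 ± 0.038 SE, adjusted p = 0.012). EEF1A1 missed the threshold. EEF1A1 was at 6218, 6251, 6195 and 6293 TPM in the vehicle libraries (replicates 1 to 4) and at 6549.7, 6467, 6386 and 7132 TPM in the LLY-283 libraries. The groups did not overlap (log2 fold change 0.087 ± 0.037 SE, adjusted p = 0.113), and without replicate 4 it passed with a smaller difference of 0.052 (adjusted p = 0.0309), as it did with mitochondrial genes left out (0.078, adjusted p = 0.0246). EEF1B2 and EEF1G, the other exchange factor subunits, had log2 fold changes of 0.044 (adjusted p = 0.345) and 0.056 (adjusted p = 0.37), and without replicate 4 of 0.018 and 0.011. After the GC and length correction both were called higher (0.18 and 0.171, adjusted p = 0.00671 and 0.0325). With that correction 4 of the 6 elongation factors were called higher. EEF2 was not called (log2 fold change 0.005 ± 0.037 SE, adjusted p = 0.942). The directions of EEF1G and EEF2 turned under quantile normalization, to -0.019 and -0.068 (adjusted p = 0.562 and 0.0172), and that of EEF2 also turned without LLY-283 replicate 4 (-0.031) and without vehicle replicate 3 (-0.005).

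The poly(A)-binding proteins PABPC1 and PABPC4, which join the mRNA tail to eIF4G, moved apart. The vehicle libraries held 120.1, 124, 122 and 117 TPM of PABPC4, and the LLY-283 libraries 130.1, 129, 133 and 135 TPM. PABPC4 rose by 9.16% with no overlap (log2 fold change 0.13 ± 0.029 SE, adjusted p = 0.0112). In replicates 1 to 4, PABPC1 measured 471, 465, 496 and 489.5 TPM with vehicle and 451, 434, 446 and 466 TPM with LLY-283. PABPC1, nearly 4 times as abundant in vehicle, was called lower (log2 fold change -0.097 ± 0.031 SE, adjusted p = 0.0467) although LLY-283 replicate 4 lay just inside the vehicle range, the only called member with overlapping groups. That call was lost without vehicle replicate 1, 3 or 4 or LLY-283 replicate 1, 2 or 3 (adjusted p from 0.0655 to 0.12).

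Ratios of members within a library do not change when all values of that library are multiplied by a common factor. Quantile normalization applies no such factor and can change them. A set of 7 ratios was compared by an exact two-sided permutation test, whose smallest p with 4 against 4 libraries is 0.0286. The PABPC1 to PABPC4 ratio was 3.98 ± 0.184 in vehicle and 3.41 ± 0.060 in LLY-283 (SD, n = 4; exact p = 0.0286). The EIF4G1 to EIF4G3 ratio was 9.18 ± 0.244 in vehicle and 10.9 ± 0.557 in LLY-283 (SD, n = 4; exact p = 0.0286). In the same order, EIF4G1 to EIF4G2 was 0.803 ± 0.011 and 0.763 ± 0.014, and EEF1A1 to EEF2 was 4.36 ± 0.054 and 4.61 ± 0.097 (SD, n = 4; exact p = 0.0286 for each). In these 4 ratios the groups did not overlap. EIF4EBP1 to EIF4EBP2 was 5.36 ± 0.537 and 6.27 ± 0.667 (exact p = 0.0857). EIF4A1 to EIF4A2 (exact p = 0.8) and EIF4EBP1 to EIF4E (exact p = 0.771) overlapped widely, and the sign of both turned without LLY-283 replicate 4. The sign of EIF4EBP1 to EIF4E also turned without vehicle replicate 1 (log2 difference -0.023). After Benjamini-Hochberg adjustment over the 7 ratios, the smallest adjusted p of these exact tests was 0.05, so that none was under the threshold. The unadjusted p of the 4 was the smallest that this design can give.

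The promoters of the members with the largest rise and the largest fall are printed to show what these starts look like. Each is the 120 bases just before the RefSeq start, 5′ to 3′ on the strand of the gene, with GGGCGG (the GC box) and CCAAT in capitals on either strand.
EIF3D: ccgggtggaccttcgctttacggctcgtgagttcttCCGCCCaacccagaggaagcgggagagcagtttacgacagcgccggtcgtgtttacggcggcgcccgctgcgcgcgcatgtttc
EIF2B2: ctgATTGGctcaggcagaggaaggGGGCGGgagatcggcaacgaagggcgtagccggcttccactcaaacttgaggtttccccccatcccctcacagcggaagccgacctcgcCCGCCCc
They lie at chr22:36529167-36529286 on the minus strand and chr14:75002801-75002920 on the plus strand of GRCh38.p14, and in the EIF3D sequence the motif stands as its reverse complement CCGCCC. EIF3D lies on chromosome 22 (ENSG00000100353). In windows of 250 bases before to 50 after the start, GGGCGG on either strand was found in 27 of the 35 members with a listed start (77.1%) and in 48.3% of all 27305 genes. CCAAT was found in 16 members (45.7%) and 39.7% of all genes. CACGTG, the E-box, was found in 7 members and 8.78% of all genes. These matches describe letters in a window. Shares among the genes tested are not given for these motifs, so the contrast may not be particular to the members, and the differences were not tested.

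Neighbouring and overlapping genes bear on several of these values, because no source used here says whether counting used strand, and reads of genes that overlap on opposite strands may then be shared. Of the 45 members, 38 overlap another annotated gene. The partners of called members included P2RY11 opposite EIF3G (log2 fold change 0.53, adjusted p = 0.000192), UTP23 opposite EIF3H (0.40, adjusted p = 0.00227), DDX55 opposite EIF2B1 (0.31, adjusted p = 0.00371) and TNS2-AS1 opposite EIF4B (-1.15, adjusted p = 0.000707). All of these were far less abundant than the member except DDX55, at 32.2 TPM in vehicle against 47.7 TPM for EIF2B1. Within EIF4A1, SNORA48, a small nucleolar RNA gene, was at 5.37 to 19.9 TPM in vehicle and was listed at 0 in LLY-283 replicates 1, 3 and 4. Members hold 20 such genes, of which 5 were tested, and SNORA48 was the only one called. SNORA67, also within EIF4A1, was at 30.69 TPM in vehicle replicate 3 and at 0 in every other library. The reads behind such values are unknown, so a loss of SNORA48 cannot be read from them. Numbered pseudogenes were listed for 25 members, 153 in all, and their summed level was at most 5.21% of the parent (EIF2S2).

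Other genes of translation, in 7 lists with 65 genes of which 61 were tested, gave 11 higher and 8 lower calls (18.0% and 13.1%, against 8.61% and 17.6% of all genes tested). Without LLY-283 replicate 4 there were 13 higher and 14 lower calls (21.3% and 23.0%, against 10.4% and 18.4% of all genes). The added higher calls were TSC2 and RPS6KB1 (0.19 and 0.12, adjusted p = 0.019 and 0.0327). The added lower calls were EIF2AK1 and PELO, given below, EEF1A2 (-0.24, adjusted p = 0.00153), MCTS1 (-0.17, adjusted p = 0.00658), MTIF3 (-0.18, adjusted p = 0.0121) and MLST8 (-0.12, adjusted p = 0.044). In termination and ribosome recycling 4 of 6 rose and none was called lower with all libraries (PELO, -0.17 without replicate 4, adjusted p = 0.0156), with 4 higher and 1 lower at an unadjusted p under 0.05. ETF1, the release factor that reads stop codons, rose from 84.6 ± 2.22 to 97.9 ± 1.74 TPM (SD, n = 4; log2 fold change 0.21 ± 0.029 SE, adjusted p = 0.00101). GSPT1, ABCE1 and HBS1L were the others, of which HBS1L missed the threshold without vehicle replicate 4 (adjusted p = 0.0524). In mitochondrial translation factors 2 of 9 rose, GFM1 for the mitochondrial elongation factor G (log2 fold change 0.33 ± 0.050 SE, adjusted p = 0.00139) and TUFM (log2 fold change 0.17 ± 0.032 SE, adjusted p = 0.00402). Among further initiation factors 2 of 12 tested rose, EIF2A, which encodes an initiator tRNA-binding protein unrelated to eIF2 (log2 fold change 0.26 ± 0.034 SE, adjusted p = 0.000791), and EIF3CL (log2 fold change 0.34 ± 0.079 SE, adjusted p = 0.0128).

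Of 11 further elongation factors and their modifiers, 5 fell and 2 rose. EEF2K encodes the kinase that inactivates eEF2. With vehicle EEF2K stood at 15.6, 17.9, 17.9 and 17.5 TPM, and with LLY-283 at 13.2, 12.8, 12.5 and 10.8 TPM. The groups did not overlap (log2 fold change -0.48 ± 0.073 SE, adjusted p = 0.00163). DHPS encodes the enzyme that begins hypusine synthesis on eIF5A. DHPS ran at 53.8, 58.1, 58.7 and 59.1 TPM across the vehicle libraries and at 76.8, 76.3, 77.0 and 72.2 TPM across the LLY-283 libraries. It rose by 31.7% (log2 fold change 0.40 ± 0.039 SE, adjusted p = 0.000194). The other calls were EEF2KMT, EEFSEC, EEF1AKMT1 and EEF1AKMT2, which fell, and EEF1E1, which rose. The calls of EEFSEC, EEF1AKMT1 and EEF1AKMT2 held under 11 of 19, 9 of 18 and 8 of 19 alternatives. When 1 library was left out, 2 to 6 genes of the list were called lower. The lower calls numbered 2 under quantile normalization and after the GC and length correction. They numbered 3 under median-of-ratios scaling, with no filter on low values and with the replicate block. In the mTORC1 and cap-signalling list 1 of 13 tested genes rose and 2 fell. MKNK2, for a kinase of eIF4E, fell from 60.5 ± 0.828 to 50.2 ± 1.86 TPM (SD, n = 4; log2 fold change -0.27 ± 0.034 SE, adjusted p = 0.000613). MTOR fell (log2 fold change -0.20 ± 0.030 SE, adjusted p = 0.00137) and RPS6KB2, for an S6 kinase, rose (log2 fold change 0.26 ± 0.046 SE, adjusted p = 0.00392). The 6 kinases and phosphatase subunits acting on eIF2 alpha had no call with all libraries (0 higher and 1 lower at an unadjusted p under 0.05). EIF2AK1 was called lower without LLY-283 replicate 4 (-0.09, adjusted p = 0.0114), under quantile normalization and with mitochondrial genes left out. PABPC1L was the 1 call among 4 tested poly(A)-binding protein partners and paralogs (log2 fold change -0.58 ± 0.160 SE, adjusted p = 0.026); without LLY-283 replicate 4 it was -0.39 (adjusted p = 0.00509), and without vehicle replicate 2, 3 or 4 the adjusted p was 0.0557, 0.079 and 0.0714.

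**Figure D4:**
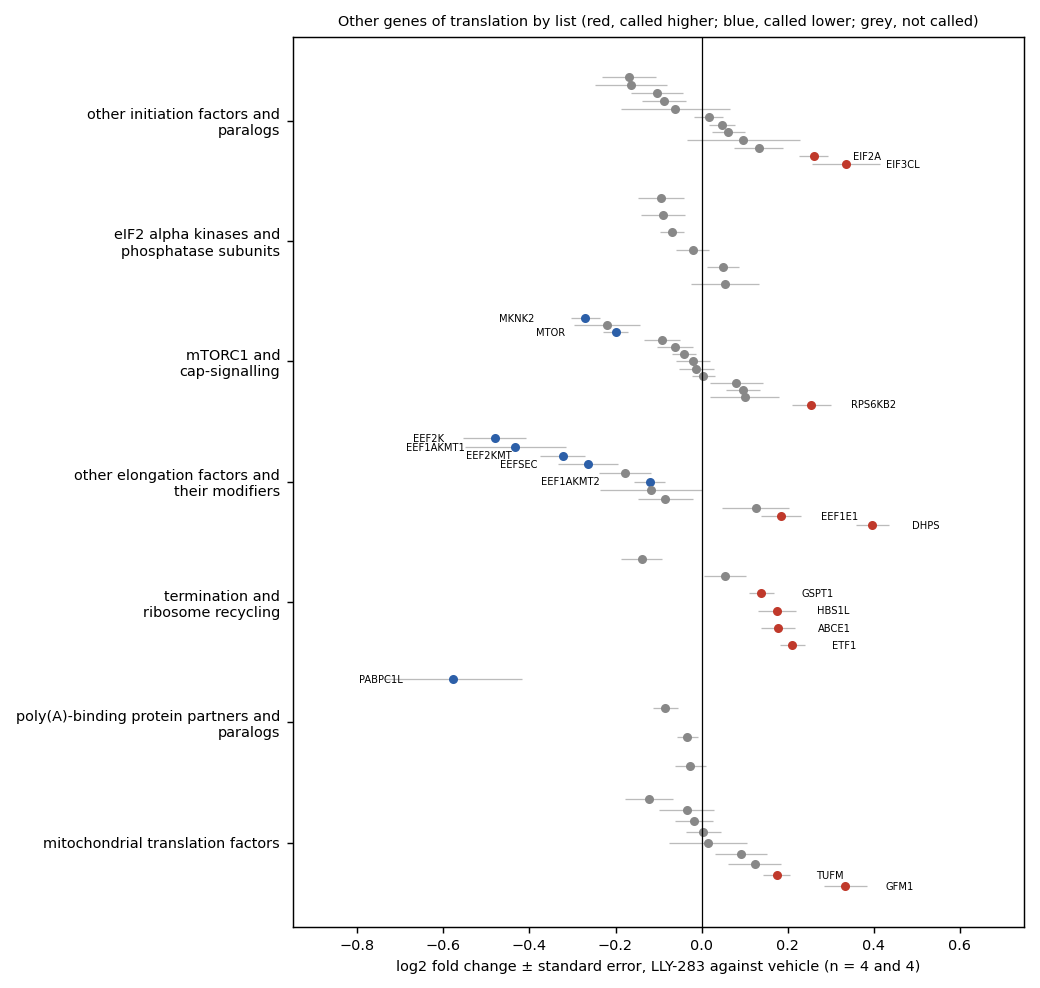
Log2 fold change ± SE (x axis) of LLY-283 against vehicle, 4 libraries each, for the 61 tested genes of 7 further lists of the translation apparatus (rows), with called genes named. Red points to the right of 0 include 4 genes of termination and recycling, and blue points to the left include 5 genes of the list of elongation factors and their modifiers.

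Of the 23 called members, 15 were called in the same direction under all 19 alternatives, 13 higher and 2 lower. The higher ones were EIF2S1, EIF5B, EIF3B, EIF3D, EIF3H, EIF3L, EIF3M, EIF4A1, EIF4B, EIF4E2, EIF4H, EEF1D and PABPC4, and the lower ones were EIF2B2 and EIF4G3. The split of member calls depended on scaling. It was 17 higher to 6 lower as reported (73.9% higher), 22 to 2 after median-of-ratios scaling (91.7%) and 28 to 2 after the correction for GC content and length (93.3%). The lower calls lost under both were EIF2B1, EIF4G1, EIF4EBP2 and PABPC1, the last 3 at -0.011, -0.097 and -0.037 under median-of-ratios scaling (adjusted p = 0.815, 0.115 and 0.461) and at -0.015, -0.105 and -0.021 after the correction (adjusted p = 0.799, 0.0588 and 0.672). Under quantile normalization EIF2S3, EIF3J and EIF4EBP2 missed the threshold (adjusted p = 0.0516, 0.055 and 0.077). Over all genes tested the share of calls in the higher direction moved from 32.9% to 55.8% and 63.0% under the same changes, and to 50.7% under quantile normalization, where the members split 15 to 6.

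**Figure D5:**
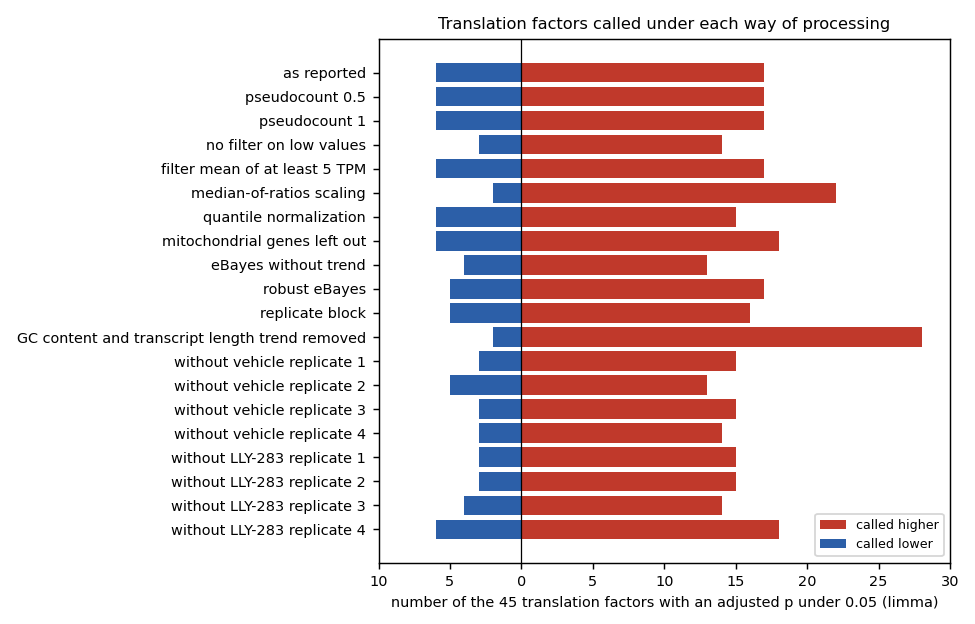
Number of the 45 translation factors called higher (red, to the right) and lower (blue, to the left) by limma at an adjusted p under 0.05, for the values as reported and 19 alternatives (rows). Higher calls range from 13 to 28 and lower calls from 2 to 6.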

How the data were processed

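RNA-seq was measured in 8 libraries, 4 with vehicle and 4 with LLY-283. The values the authors deposited are TPM per gene and library, with 2 decimals, made from adapter-trimmed reads mapped to GRCh38 with STAR and estimated with RSEM on GENCODE release 41. The submitters' processing notes name STAR 2.7.0f, RSEM 1.3.1, cutadapt 1.18 and bcl2fastq 2.20, and the methods of the study name later releases of STAR and RSEM, so the release used is uncertain. TPM keeps no depth, so no counting error can be given, and TPM values shift together when abundant transcripts change.

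The 14478 genes whose mean over the 8 libraries reached 1 TPM were put on the scale log2(TPM + 0.1). In R 4.3.3, limma 3.58.1 fitted LLY-283 against vehicle over the whole table, with eBayes moderation that follows the mean-variance trend and no replicate block. Adjustment was by Benjamini-Hochberg. A fold change is therefore on the log2(TPM + 0.1) scale. Percent changes are of mean TPM. Ratios were compared by an exact permutation test that goes through every split of the libraries. The fit was also run on simulated data, with changes larger than that of any member and libraries drawn independently. That run therefore does not bear on calls of changes as small as those of the members. Gene positions are from GENCODE release 44 and start sites from RefSeq.

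The members and lists were chosen with earlier results of these data known. Values in every library are given for called members without overlap, up to the 20 with the smallest p, and for the most abundant member of each role. In each further list the rule names the call with the smallest p in each direction. Other genes, and the values of EIF2B4 and EIF4A2 in every library, were chosen after values were seen. The 19 alternatives were 2 pseudocounts (0.5 and 1), no filter and a filter at 5 TPM, 3 scalings, 2 variance models, a replicate block, a correction for GC content and length (natural splines, 4 degrees of freedom each), and each library left out.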

Additional observations from a re-analysis of the deposited data

Results flagged for a closer look

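Within the 4 libraries of a group, a value was picked out where its gap to the next, as a share of the whole range, passed Dixon's critical value. This happened for 7 of 90 member groups, where chance gives about 1 in 20 for independent groups. The member groups share the same libraries, and the share over all genes tested is not given, so no excess among the members can be read from the count. Of the 7, 6 were in LLY-283 replicate 4, which also had the lowest mitochondrial share. Replicate 4 was the highest LLY-283 library for EIF4A1 (1597 TPM), EIF6 (158.62 TPM), EEF1B2 (470.74 TPM) and EEF1G (1391 TPM). It was the lowest for EIF4A2 (342.69 TPM) and EIF4G3 (41.79 TPM). Among the vehicle libraries, replicate 3 was the lowest for EEF1D (547.12 TPM). With the mitochondrial genes left out and each library rescaled, 3 member groups were picked out, 2 of them among the 7 above.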

How the results depend on the processing

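Of the 855 values of members under the 19 alternatives, 753 kept their direction and their side of the threshold, 65 lost and 21 gained a call, and 16 changed direction, none of the last in a called member. Correction for GC content and transcript length gave 28 members called higher and 2 lower, 2801 and 1644 of all genes, 5 genes of the 7 further lists called lower, and medians of 0.171 (members) and 0.032 (all genes). Median-of-ratios scaling gave 2 members called lower, 2165 genes called higher, and medians of 0.126 and 0.013. Quantile normalization gave 1871 genes called higher and a median of 0.014. No filter gave 3 members and 5 genes of the further lists called lower, and a filter at 5 TPM a median of -0.027 over all genes. With eBayes without trend 13 members were called higher and 4 lower, against 7.16% and 16.5% of all genes. The calls of EIF2S3, EIF3G, EIF3J, EIF5A, EIF4G1 and PABPC1 were lost there (adjusted p from 0.0594 to 0.109). The cause was not tested.

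Without 1 library, 13 to 18 members were called higher and 3 to 6 lower (3 without vehicle replicate 1, 3 or 4 or LLY-283 replicate 1 or 2), with a median of 0.067 to 0.096. Over all genes 888 to 1508 were called higher and 1889 to 2659 lower, with a median of -0.05 to -0.038. In the further lists 10 to 13 were called higher and 5 to 14 lower, the last without LLY-283 replicate 4. The log2 difference of EIF4A1/EIF4A2 ran from -0.047 to 0.126 and that of EIF4EBP1/EIF4E from -0.043 to 0.081, EIF2S2 from -0.033 to 0.001, EIF3K from -0.002 to 0.064, EIF4G2 from -0.009 to 0.011 and EEF2 from -0.031 to 0.025.

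Uncalled members that changed direction otherwise were EIF1AX (0.027 under median-of-ratios scaling and 0.027 with the GC and length correction), EIF2S2 (0.047 and 0.063), EIF6 (0.058 with that correction), EEF1G (-0.019) and EEF2 (-0.068) under quantile normalization, and EIF4G2 (-0.007) and EEF2 (-0.004) with mitochondrial genes left out. With the replicate number as a block, 16 members were called higher and 5 lower, all 21 among those called without it, and of all genes 7.56% higher and 15.2% lower. EIF3G (adjusted p = 0.0662) and EIF4G1 (0.0833) lost their calls under the block, as did HBS1L (0.0511), EEF1AKMT1 (0.0599) and EEF1AKMT2 (0.0885) of the further lists. The labels do not say whether equal numbers mark paired samples. Same-numbered libraries correlated at -0.085 to 0.032 after removal of group means, which cannot show how the cultures were handled. Within the replicate block, the exact sign-flip test of the ratios cannot go below 0.125. The unknown depth and the 4 libraries per group limit what small changes can be seen, and 1 line, dose and time were measured.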
